A study of Rattus norvegicus with 34 samples.

Results

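The 6 genes described here encode S100 calcium-binding proteins: S100a9, S100a8, S100a11, S100a10, S100a6 and S100a4. They were followed in the livers of 34 male rats, each measured on its own Affymetrix Rat 230 2.0 array. The 6 were found by gene symbol among the 12461 genes that a probe set names singly, and each is read by 1 probe set, the same in both strains. F344 rats were 6, 11, 18 or 24 months old, with 4 rats at each age. They were untreated and stayed with their supplier until the last week before necropsy. Brown Norway rats were 4, 12 or 24 months old, with 3 control and 3 dosed rats at each age. The dosed rats were given 1 g/kg of toluene, a solvent that the liver oxidises, by gavage in corn oil and were killed 4 h later. The labels of the Brown Norway controls give no treatment, and do not say whether they received corn oil. Each array is a separate animal, so the spread within a group is the spread between rats. How precise a value is depends on how many arrays stand behind it. The arrays of the 2 strains differ in scale. The strains are therefore compared here by their differences between ages and not by their levels.

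S100 proteins are small proteins with paired EF-hand loops that mostly work as dimers. On binding calcium most of them expose a surface that grips a target protein. S100a8 and S100a9 join as calprotectin, an abundant protein of neutrophils and monocytes that is released in inflammation and acts on Toll-like receptor 4 and on the receptor RAGE. S100a10 is the partner of annexin A2 at the cell membrane and holds its shape without calcium, and S100a11 binds annexin A1. S100a6 binds the ubiquitin ligase adaptor Cacybp, and S100a4 binds the heavy chain of non-muscle myosin and is widely used as a marker of fibroblasts and of migrating cells. In healthy liver these genes are known mainly from cells other than hepatocytes.

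All 6 genes lie on rat chromosome 2. In the RefSeq order of protein-coding genes S100a8 and S100a9 are direct neighbours, as are S100a11 and S100a10, and S100a4 and S100a6 have only S100a5 between them. Of the 6, 4 have an entry in the RefSeq promoter table, S100a9, S100a11, S100a6 and S100a4. The 120 bases before the annotated start (build GRCr8) of 3 of them are printed, since S100a9 on the one hand and S100a11 and S100a4 on the other were high in different Brown Norway rats. Capitals mark TATAAA, the TATA box sequence, and a loose form of the NF-kB site, written as GGG, any 5 bases and CC.

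S100a9, chr2:178490623-178490742, minus strand: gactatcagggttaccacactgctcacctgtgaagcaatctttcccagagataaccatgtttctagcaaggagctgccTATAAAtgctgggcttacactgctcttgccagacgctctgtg

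S100a11, chr2:181875012-181875131, plus strand: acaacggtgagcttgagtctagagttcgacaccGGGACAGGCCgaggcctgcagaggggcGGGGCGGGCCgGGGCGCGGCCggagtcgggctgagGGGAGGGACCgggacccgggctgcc

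S100a4, chr2:178388409-178388528, plus strand: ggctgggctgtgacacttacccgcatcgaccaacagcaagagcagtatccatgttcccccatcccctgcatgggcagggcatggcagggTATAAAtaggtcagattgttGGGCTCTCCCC

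Both strands of the full window of 300 bases, from 250 before to 50 after the start, were searched in the 4 members and in all 33469 promoters of the table. TATAAA was found in 2 of the 4, starting at -42 in S100a9 and at -31 in S100a4, and in 14.2% of all promoters. The loose NF-kB form was found in S100a11, S100a6 and S100a4 and in 47.3% of all promoters. In S100a4 its matches on the 2 strands overlap. TTNNGNAA, a loose form of the C/EBP site, was found in S100a9 alone of the 4, at -173 and at 11, and in 41.3% of all promoters. TGANTCA, the AP-1 site, was found in 0 of the 4 and in 7.33% of all. These are matches of letters only.

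Median signals ran from 35.6 to 38.3 on the Brown Norway and from 44.9 to 47.1 on the F344 arrays. Albumin, which marks hepatocytes, lay between 7311 and 8946 on all 34 arrays. For GAPDH, the signal of its 3' probe set over that of its 5' probe set, which rises as RNA is degraded, stayed within 0.774 to 0.944 for the Brown Norway arrays. The F344 values were 1.66 to 4.35 at 6 months, 1.49 to 7.33 at 11, 1.31 to 5.31 at 18 and 1.38 to 2.17 at 24 months, and 5 arrays of the first 3 ages exceeded 2.5. Signals under 32 are close to the background of the arrays and were set to 32 before log2 was taken, so a fold against a group that lies under 32 is a lower bound. Among the Brown Norway arrays, 4 stood apart in S100 genes and are named with their values further on: rat 2 of the 4-month controls, rat 1 of the 4-month dosed rats, rat 2 of the 12-month dosed rats and rat 1 of the 24-month controls.

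In F344 livers all 6 genes were higher at 24 than at 6 months. The groups of 6 and 11 months overlapped for each gene, as did those of 18 and 24 months. Most genes do the same: the older group lay wholly above the younger for 1.25% and 4.04% of all genes tested. S100a9 was 4.01-fold, S100a11 2.85-fold, S100a10 2.05-fold and S100a6 1.82-fold higher at 24 than at 6 months. S100a4 was at least 2.28-fold and S100a8 at least 1.87-fold higher, since neither gene reached 32 on any array at 6 months. More cells of a type and more RNA per cell cannot be told apart in whole liver.

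S100a9, a subunit of calprotectin, had signals of 57.0, 53.1, 65.7 and 47.7 in the 4 rats of 6 months. The 11-month rats read 79.0, 118, 60.1 and 83.4, the 18-month rats 144, 351, 306 and 199, and the 24-month rats 300, 149, 266 and 207. Every rat of 18 or 24 months lay above every younger rat, while the 6 and 11 month groups overlapped, and so did 18 and 24 months. The mean was 55.9 ± 7.56 (SD, n = 4) at 6 months and 230 ± 66.6 (SD, n = 4) at 24 months, a log2 difference of 2.00 (SE 0.27, adjusted p = 0.000282).

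S100a8, its partner in calprotectin, had signals of 1.37, 17.6, 21.6 and 22.8 at 6 months and 15.5, 31.3, 22.8 and 28.3 at 11 months. At 18 months the 4 rats read 35.9, 75.7, 68.8 and 39.6, and at 24 months 71.5, 40.3, 68.0 and 64.7. The 8 younger arrays thus all lay under 32 and the 8 older arrays all above it. Against the floor the log2 difference was 0.90 (SE 0.22, adjusted p = 0.0178) at 24 months. At 18 months it was 0.70 (SE 0.22), which missed the threshold (adjusted p = 0.148). The 18-month rats that were highest in S100a9, rats 2 and 3, were also highest in S100a8.

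S100a11, the binding partner of annexin A1, read 72.7, 67.5, 110 and 120 at 6 months and 70.3, 206, 96.4 and 139 at 11 months. The 18-month rats read 423, 261, 496 and 219 and the 24-month rats 231, 210, 296 and 297. All older rats lay above the 4 youngest, and the 206 of 1 rat of 11 months fell just short of the lowest old rat. From 6 to 18 months the log2 difference was 1.88 (SE 0.31, adjusted p = 0.00714), and to 24 months it was 1.51 (SE 0.31, adjusted p = 0.007).

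S100a10, which anchors annexin A2, was the most even gene within the youngest group, at 105, 98.7, 96.5 and 95.5. Its signals were 94.3, 173, 89.4 and 131 at 11 months, 193, 186, 237 and 159 at 18 months and 228, 169, 237 and 182 at 24 months. Rat 2 of the 11-month group, also the highest of its age in S100a11, S100a9 and S100a8, was the only young rat within the range of the old. The log2 difference was 0.96 (SE 0.19, adjusted p = 0.019) from 6 to 18 months and 1.03 (SE 0.19, adjusted p = 0.00279) from 6 to 24 months.

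S100a6, the Cacybp-binding member, read 49.5, 39.9, 30.1 and 35.8 at 6 months and 39.7, 40.2, 58.7 and 50.6 at 11 months. At 18 months it read 76.5, 59.2, 64.9 and 71.2, and at 24 months 78.9, 60.2, 83.1 and 62.9. Every older rat was above every younger rat, by a margin of less than 1 between the highest rat of 11 months and the lowest of 18. The log2 differences from 6 months were 0.80 (SE 0.16, adjusted p = 0.0222) at 18 and 0.86 (SE 0.16, adjusted p = 0.00389) at 24 months.

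S100a4, which binds non-muscle myosin, read 26.5, 20.2, 11.4 and 28.7 at 6 months and 5.42, 9.59, 12.5 and 33.7 at 11 months. The older rats read 65.1, 46, 59.5 and 120 at 18 months and 90.5, 51.6, 78.5 and 76.7 at 24 months. Of the 8 younger arrays 7 lay under 32, and all 8 older arrays lay above it. The log2 difference against the floor was 1.09 (SE 0.22, adjusted p = 0.0218) at 18 and 1.19 (SE 0.22, adjusted p = 0.00351) at 24 months.

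**Figure D1:**
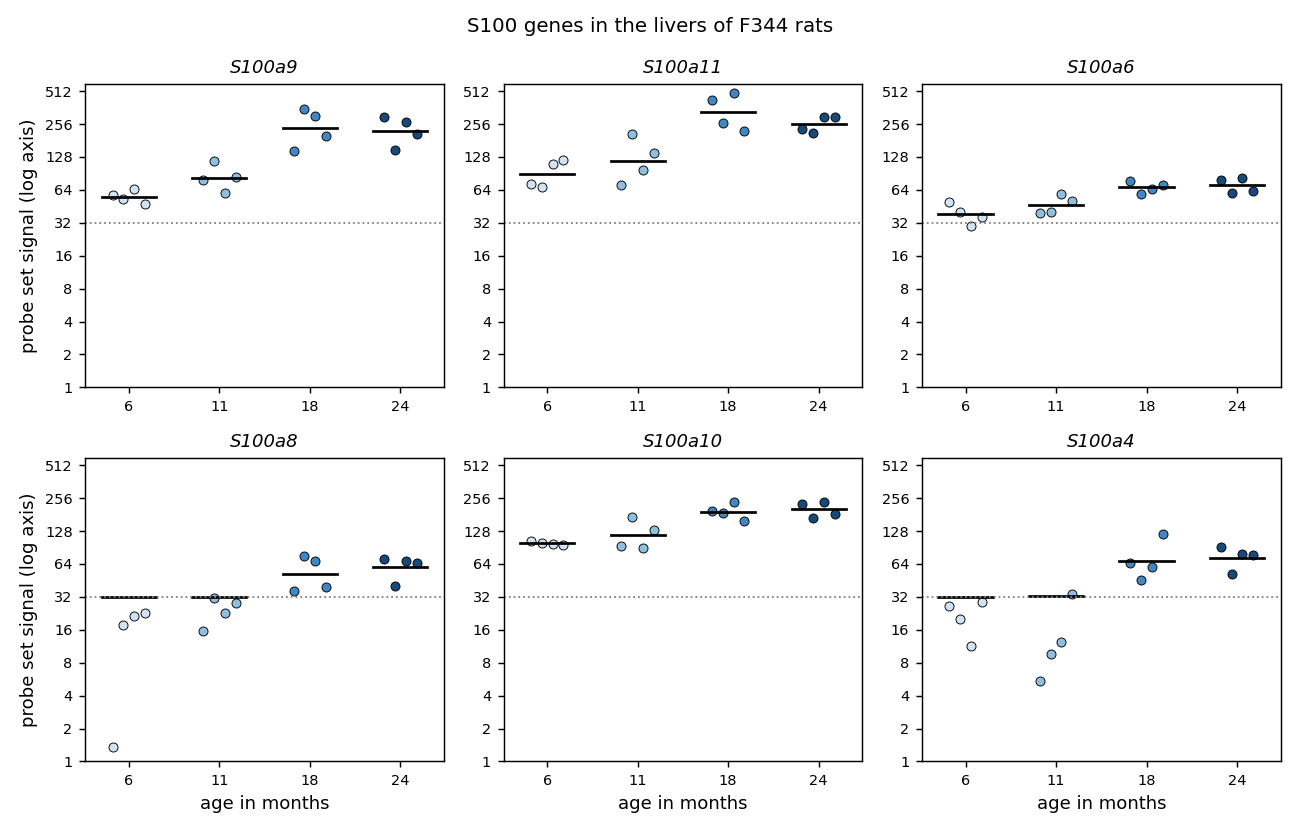
Probe set signal (log axis) of the 6 S100 genes in F344 rats by age in months, 1 point per rat; bars are means of the log2 signals after flooring at 32 (dotted line). In every panel the points of 18 and 24 months sit above those of 6 months, and for S100a8 the points of 6 and 11 months all lie under the dotted line.

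The tests were run in limma over the 9214 genes measured in F344 livers, 6 of 6 members among them, and adjusted by Benjamini-Hochberg over all of them. Between 6 and 18 months 5 of the 6 rose, all but S100a8, where 0.912% of all genes tested were higher and 0.163% lower. In that comparison every older rat lay above every younger rat for 6 of 6 members and for 4.24% of all genes. Between 6 and 24 months 6 of 6 rose, where 4.44% of all genes were higher and 2.96% lower, and the groups did not overlap for 6 of 6 members and 8.81% of all genes. The median log2 difference of the members was 1.02 at 18 and 1.11 at 24 months, while the median of all genes was -0.0046 and -0.011. These comparisons share the 6-month arrays. A gene was tested if it exceeded 32 on at least 4 arrays. S100a8 met this only through the 8 arrays of 18 and 24 months, and S100a4 through these 8 and 1 of 11 months, so that both had to differ and their place in these counts was not independent of the filter. The other 4 members were among those that rose in both comparisons. All 6 were chosen with earlier results of these data known, so their shares against those of all genes were not independent of these data.

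Leaving out single rats changed several calls between 6 and 18 months, where the number that rose ran from 2 to 5. S100a9 and S100a11 passed each time. S100a10 missed without 18-month rat 3 or without 6-month rat 1, 2 or 3 (adjusted p = 0.0503 to 0.0871). S100a6 missed without 18-month rat 1 or 3 or 6-month rat 2, 3 or 4 (adjusted p = 0.061 to 0.0788), and S100a4 without 18-month rat 3 or any 6-month rat (adjusted p = 0.0516 to 0.0746). The share of all genes called in either direction ran from 0.262% without 18-month rat 3 to 2.25% without 18-month rat 4, against 1.07% with all rats. Between 6 and 24 months it ran from 4.23% to 6.99%, against 7.4%. Of the members only S100a8 missed there, without 24-month rat 1 or rat 4 (adjusted p = 0.0663 and 0.0524). Without the 5 arrays of high GAPDH ratio, 3 members passed from 6 to 18 months and 5 from 6 to 24 months, S100a8 being the member that missed (log2 difference 0.90, adjusted p = 0.113).

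Neighbouring ages were compared as well. Between 6 and 11 months 0 of 6 members passed in limma, as did 0% of all genes in either direction, and at an unadjusted p under 0.05 there were 0 members and 357 genes, or 3.87% of all. The largest difference of that comparison was that of S100a9, 0.58 on the log2 scale (95% interval -0.00099 to 1.15). Between 11 and 18 months S100a9 alone passed, where 0.206% of all genes were higher and 0.0868% lower, with a log2 difference of 1.51 (SE 0.27, adjusted p = 0.0278). S100a11 and S100a4 had differences of 1.49 and 1.07 there and narrowly missed (adjusted p = 0.0557 for both). The groups of 11 and 18 months did not overlap for 5 of 6 members and 2.4% of all genes, the exception being S100a10. S100a9 missed without 18-month rat 2 or 3 or 11-month rat 1 or 3 (adjusted p = 0.0557 to 0.129). S100a11 passed without 18-month rat 4 or 11-month rat 2 (adjusted p = 0.0223 and 0.041), and S100a4 passed without 18-month rat 2 or 4 (adjusted p = 0.0281 and 0.0294).

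Between 11 and 24 months 5 of 6 members rose, where 2.6% of all genes were higher and 2.32% lower. This comparison shares no array with that of 6 and 18 months, but both drew on a shared estimate of the spread from all 16 F344 arrays. The groups did not overlap for 5 of 6 members, S100a10 again being the exception, and for 6.47% of all genes. S100a8 and S100a4 count in both, though they met the filter only or mostly through arrays of 18 and 24 months. S100a9 rose 2.69-fold and S100a10 1.72-fold, S100a6 rose 1.51-fold, S100a4 was at least 2.25-fold and S100a8 at least 1.87-fold higher. S100a11, at a log2 difference of 1.12 (SE 0.31), just missed (adjusted p = 0.0503). S100a9 and S100a4 passed whichever rat was left out. The number that passed ran from 2 to 5, because S100a8 missed without 24-month rat 1, 3 or 4 or 11-month rat 2 or 3 (adjusted p = 0.0508 to 0.0856), S100a10 without 24-month rat 1, 3 or 4 or 11-month rat 1 or 3 (adjusted p = 0.0518 to 0.0836), and S100a6 without 24-month rat 1, 3 or 4 or 11-month rat 1, 2 or 4 (adjusted p = 0.0585 to 0.139). S100a11 passed without 11-month rat 2 (adjusted p = 0.0185). The share of all genes called in either direction ran from 1.97% without 24-month rat 4 to 5.79% without 24-month rat 3, against 4.93%.

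Between 18 and 24 months 0 of 6 members passed in limma, against 0.912% of all genes higher and 0.879% lower. At an unadjusted p under 0.05 there were again 0 members, against 11.9% of all genes. The log2 differences lay between -0.37 for S100a11 (95% interval -1.03 to 0.29) and 0.19 for S100a8 (95% interval -0.26 to 0.65). The intervals of S100a9, -0.66 to 0.49, and of S100a4, -0.37 to 0.57, hold differences in both directions, so the levels at 18 and 24 months are not shown to be equal.

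**Figure D2:**
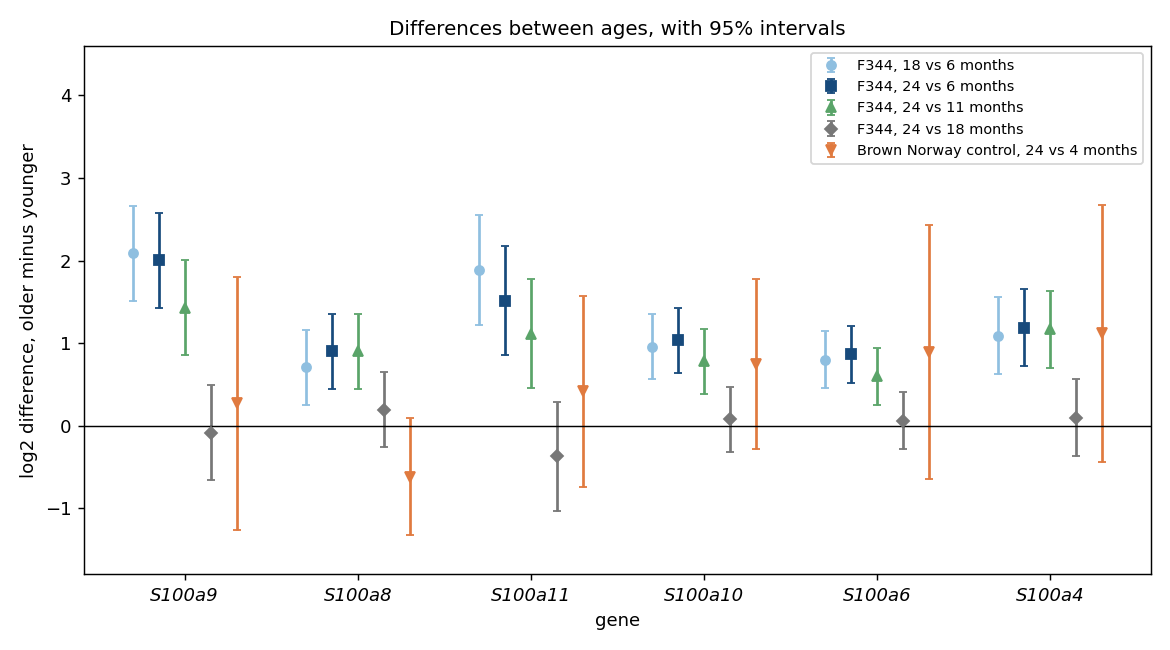
Log2 difference between an older and a younger group (vertical axis) for each S100 gene (horizontal axis), with 95% intervals from limma; colours and symbols mark 4 F344 comparisons and the Brown Norway controls. The intervals of 18 versus 6, 24 versus 6 and 24 versus 11 months lie above 0 for all 6 genes, while those of 24 versus 18 months and of the Brown Norway rats all include 0.

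Among the proteins that S100 proteins bind, 3 annexins rose. Of the 14 binding partners and receptors tested, 3 were higher at 18 and 4 at 24 months, 0 lower, and the median of the list was 0.42 and 0.39 on the log2 scale. Anxa1, the partner of S100a11, rose from 66.4 ± 13.1 (SD, n = 4) at 6 months to 212 ± 54.5 at 18 and 184 ± 39.3 at 24 months (log2 difference 1.65, adjusted p = 0.00193, and 1.46, adjusted p = 0.000524). Anxa5, another calcium-dependent membrane binder, rose 2.11-fold (adjusted p = 0.0177) and 2.00-fold (adjusted p = 0.00696). Anxa2, the partner of S100a10, rose 2.06-fold to 18 months (adjusted p = 0.04). Tropomyosin Tpm4, an actin-binding protein, rose 2.89-fold to 24 months (adjusted p = 0.000153). Cacybp, Myh9 and Cd14 were among the partners that did not pass at 24 months, at 0.34, 0.47 and -0.12 on the log2 scale.

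Of the other S100 genes and S100pbp, an S100P-binding protein, 3 were tested in F344 rats, and 0 passed at 18 or at 24 months. At 24 months S100a16 stood at -0.09 on the log2 scale (95% interval -0.55 to 0.36), S100a14 at 0.05 (95% interval -0.23 to 0.32) and S100pbp at -0.26 (95% interval -0.70 to 0.18).

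The lists of monocyte and macrophage markers and of actin cytoskeleton genes held genes that rose over the same ages. The summed signal of the 13 monocyte and macrophage markers was 3929 to 5045 at 6 months, 6175 to 8241 at 18 and 5734 to 8126 at 24 months. Of these 13, 4 rose by 18 months and 6 by 24 months, led by Fcer1g, the signalling chain of Fc receptors, at 1.93-fold (adjusted p = 0.00402) and 1.91-fold (adjusted p = 0.000893). Lyz2, the lysozyme of macrophages, and Csf1r, their growth factor receptor, were 1.51-fold (adjusted p = 0.0367) and 1.62-fold (adjusted p = 0.0447) higher at 18 months. The adaptor Tyrobp and the lysosomal Cd68 were 1.96-fold (adjusted p = 0.00987) and 1.91-fold (adjusted p = 0.0123) higher at 24 months. Of 17 genes in the actin cytoskeleton list, which also held the galectins Lgals1 and Lgals3, 1 rose by 18 and 8 by 24 months. The 1 at 18 months was Lgals3, a galectin of macrophages and not an actin gene, 2.17-fold higher (adjusted p = 0.019). At 24 months Lgals3 was 2.48-fold higher (adjusted p = 0.00162). Lcp1, a bundler of actin in leukocytes, and Arpc1b, a subunit of the Arp2/3 complex, were 2.45-fold (adjusted p = 0.00212) and 1.72-fold (adjusted p = 0.00444) higher at 24 months.

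Of the neutrophil list, Csf3r and Mmp8 stayed at background. Fcnb lay under 32 on 15 of the 16 F344 arrays and read 38.1 in 18-month rat 3. Csf3r, the receptor for granulocyte colony-stimulating factor, read at most 20.3 and the neutrophil collagenase Mmp8 at most 21.5 on the 16 F344 arrays. Il1b was the only gene of the neutrophil list of 18 that could be tested, and it also belongs to macrophages. It rose 1.82-fold by 18 months (adjusted p = 0.0496) and 1.68-fold by 24 months (adjusted p = 0.0311). The part of these cells in the S100 differences was not tested.

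Of 10 stellate cell and fibroblast markers 1 rose by 18 and 2 by 24 months. The intermediate filament Vim was 2.24-fold (adjusted p = 0.00402) and 2.28-fold (adjusted p = 0.000524) higher, and the matrix protein Dcn was 3.32-fold higher at 24 months (adjusted p = 0.018). The list's summed signal was 810 to 1297 at 6 months, 1268 to 2039 at 18 and 1128 to 1816 at 24 months. Of 9 lymphocyte markers 0 rose by 18 and 3 by 24 months. These were Gzmk, Klrd1 and Cd8a of cytotoxic cells, at least 2.00-fold, 1.52-fold and 1.73-fold against mostly floored young arrays (adjusted p = 0.00516, 0.00841 and 0.0313). Of 5 bile duct markers 0 rose by 18 and 2 by 24 months, Cldn7 by at least 2.47-fold (adjusted p = 0.00284) and Anxa3 1.78-fold (adjusted p = 0.0123).

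Hepatocyte and endothelial lists held no gene that passed, which does not show them to be level. The summed signal of the 9 hepatocyte markers was 57883 to 59421 at 6 months and 59230 to 60638 at 24 months, with 0 of 9 passing at 18 or 24 months. Of the 7 endothelial markers 0 passed at either age. Their summed signal was 1821 to 2104 at 6 months and 1658 to 2121 at 24 months. Of 17 acute-phase plasma proteins 1 rose at each age, Lbp, the carrier of bacterial lipopolysaccharide, from 471 ± 96.4 (SD, n = 4) to 1905 ± 830 at 18 months (adjusted p = 0.00402) and 1282 ± 398 at 24 months (adjusted p = 0.0067). Of 13 inflammatory signalling genes 2 rose by 18 months, Nfkbia 1.64-fold (adjusted p = 0.0172) and Stat3 2.07-fold (adjusted p = 0.0433). At 24 months Stat3 was 2.19-fold higher (adjusted p = 0.0075) and the receptor Il6r fell by 0.49 on the log2 scale (adjusted p = 0.0459).

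In Brown Norway livers 0 of the 6 genes passed for age or for toluene, and single rats held the extreme values. S100a4, S100a6 and S100a11 were high together in 3 rats of different groups and S100a10 in 2 of these, and S100a8 and S100a9 were high together in other rats. The values of each rat follow.

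S100a9 read 27.0, 289 and 39.7 in the 4-month controls and 36.6, 42.8 and 24.7 in the dosed rats of that age. At 12 months it read 48.6, 51.7 and 32.6 in controls and 41.0, 49.3 and 108 in dosed rats, and at 24 months 80.3, 130 and 61.3 in controls and 44.2, 184 and 29.0 in dosed rats. The highest value belonged to rat 2 of the youngest controls. All 24-month controls lay above all 12-month controls, and every other pair of ages and every pair of treatments overlapped.

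S100a8 stood at or above 32 on 4 of the 18 arrays only. These were 117 in rat 2 of the 4-month controls, 40.4 in rat 2 of the 24-month dosed rats, 35.0 in rat 3 of the 12-month dosed rats and 32.3 in rat 2 of the 24-month controls. The same 4 rats held the 4 highest values of S100a9. The other 14 arrays read 0.583 to 24.1.

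S100a11 read 105, 91.5 and 74.4 in the 4-month controls and 315, 89.6 and 73.8 in the dosed rats of that age. The 12-month values were 94.4, 89.4 and 115 in controls and 80.3, 241 and 88.1 in dosed rats, and the 24-month values 264, 72.8 and 88.4 in controls and 71.1, 110 and 69.3 in dosed rats. In 3 groups a single rat stood above the other two by more than 100.

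S100a10 was high in 2 of these 3 rats. It read 160, 104 and 127 in controls and 382, 114 and 111 in dosed rats at 4 months. At 12 months it read 188, 145 and 144 in controls and 105, 177 and 143 in dosed rats, and at 24 months 515, 115 and 169 in controls and 117, 138 and 130 in dosed rats. The highest array was rat 1 of the 24-month controls, and the 177 of rat 2 of the 12-month dosed group lay within the range of the controls of that age.

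S100a6 read 39.1, 34.8 and 33.4 in controls and 403, 32.7 and 32 in dosed rats at 4 months. It read 63.7, 56.8 and 45.7 in controls and 43.7, 192 and 64.7 in dosed rats at 12 months, and 97.5, 60.1 and 49.8 in controls and 49.1, 48.7 and 44.1 in dosed rats at 24 months. All 12-month and all 24-month controls lay above all 4-month controls.

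S100a4 read 43.4, 34.8 and 30.3 in controls and 388, 32 and 33.4 in dosed rats at 4 months. It read 93.7, 59.7 and 53.8 in controls and 49.0, 118 and 54.7 in dosed rats at 12 months, and 169, 60.4 and 48.3 in controls and 32.6, 52.5 and 29.2 in dosed rats at 24 months. Like S100a6, it separated the older controls from the 4-month controls completely.

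**Figure D3:**
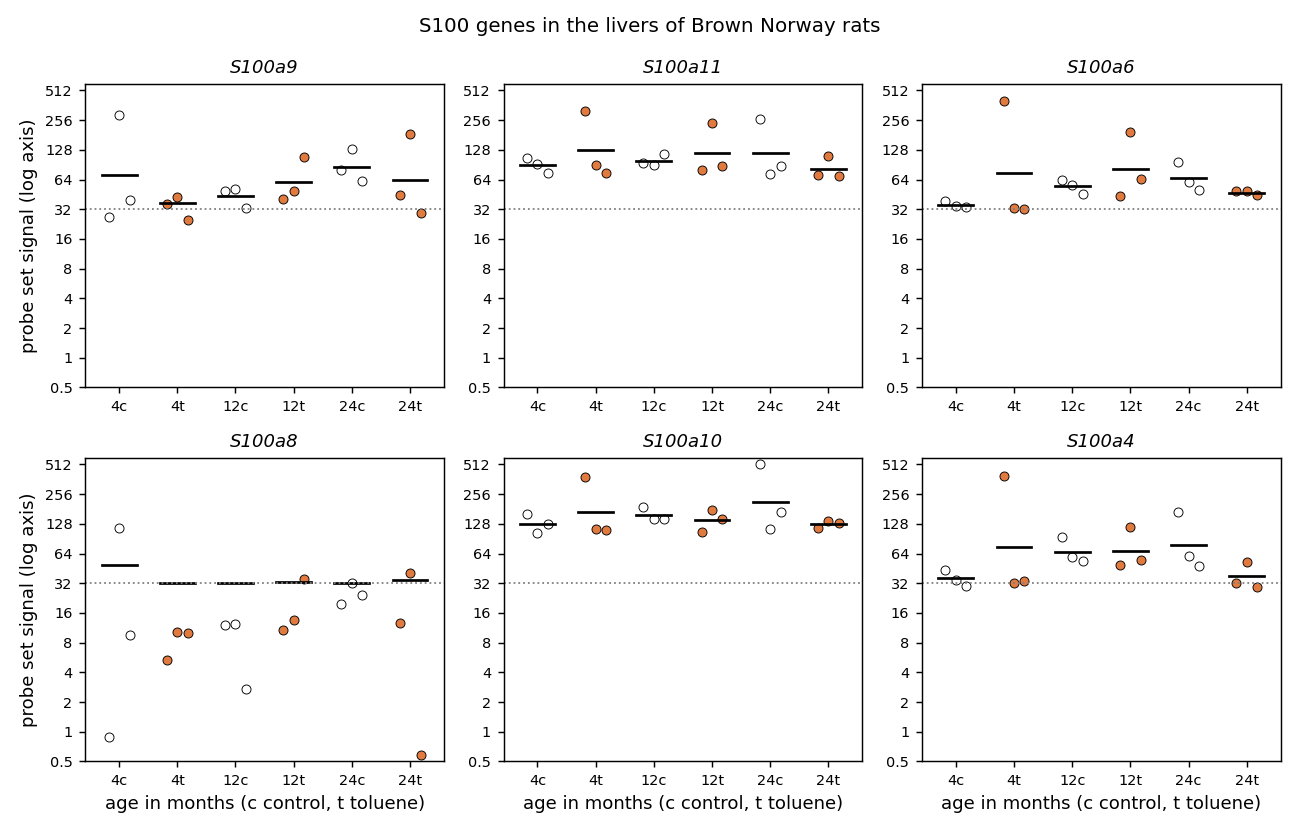
Probe set signal (log axis) of the 6 S100 genes in Brown Norway rats, by age in months and treatment, 1 point per rat (white control, orange toluene); bars are means of the log2 signals after flooring at 32 (dotted line). A single dosed rat of 4 months is far above the other two in S100a11, S100a10, S100a6 and S100a4, and a different rat, a 4-month control, is far above in S100a9 and S100a8.

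For age in the controls, 0 of 6 members passed in limma between 4 and 12 months, where 0% of the 8586 genes tested passed in either direction, and 0 of 6 between 4 and 24 months, where 0.175% were higher and 0.0699% lower. Between 12 and 24 months 0 of 6 passed, against 0.0233% higher and 0% lower. At an unadjusted p under 0.05 there were 0 members in each of the 3 comparisons, against 3.89%, 11.6% and 14.5% of all genes. The log2 differences from 4 to 24 months were 1.12 for S100a4 (95% interval -0.44 to 2.67), 0.89 for S100a6 (-0.65 to 2.44), 0.75 for S100a10 (-0.28 to 1.77), 0.42 for S100a11 (-0.74 to 1.57), 0.27 for S100a9 (-1.27 to 1.80) and -0.62 for S100a8 (-1.32 to 0.09). All 6 intervals include 0. The upper bounds of S100a11, S100a10, S100a6 and S100a4 lie above their F344 difference of 24 and 6 months.

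The non-overlapping groups of S100a6 and S100a4 are 2 of 6 members between 4 and 12 months, where 4.16% of all genes do the same, and 2 of 6 between 4 and 24 months, against 6.72%. Between 12 and 24 months S100a9 is 1 of 6, against 8.89%. Rat 1 of the 24-month controls was the highest of its group in S100a6 and S100a4, so leaving it out cannot make these groups overlap. Without that rat the differences were 0.62 for S100a6 and 0.57 for S100a4, those of S100a10 and S100a11 were 0.12 and -0.16, and 0 of 6 passed. Without rat 2 of the 4-month controls the difference of S100a9 was 1.27 (adjusted p = 0.397) and that of S100a8 was 0.0048. Leaving out each rat in turn, the share of all genes called in either direction between 4 and 24 months ran from 0% without rat 3 of the 4-month controls to 1.57% without rat 2 of the 24-month controls, where 104 genes were higher and 30 lower.

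Among the dosed rats 0 of 6 members passed between any ages in limma, against 0% of all genes in either direction between 4 and 12 months, 0.221% higher and 0.0466% lower between 4 and 24 months, and 0.0699% higher and 0.0233% lower between 12 and 24 months. At an unadjusted p under 0.05 there were 0 members in each, against 2.46%, 5.49% and 3.23% of all genes.

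Toluene, against the controls of the same age, gave 0 of 6 members at each age in limma. Of all genes 0.0233% were higher and 0% lower at 4 months, 0.0349% and 0% at 12 months, and 0.0466% and 0.0116% at 24 months, and at an unadjusted p under 0.05 there were 0 members at each age, against 3.12%, 4.6% and 11.1% of all genes. At 4 months S100a6 stood at 1.07 (95% interval -0.47 to 2.61) and S100a4 at 1.03 (95% interval -0.52 to 2.59) on the log2 scale. Without rat 1 of the dosed group these differences turned to -0.14 and -0.16, and those of S100a11 and S100a10 went from 0.52 and 0.39 to -0.14 and -0.19. S100a9 stood at -0.96 at 4 months and at 0.05 without rat 2 of the controls. At 12 months S100a6 went from 0.57 to -0.05 and S100a11 from 0.27 to -0.24 without rat 2 of the dosed group. At 24 months S100a4 stood at -1.06 (95% interval -2.61 to 0.50) and S100a10 at -0.75, and at -0.51 and -0.12 without rat 1 of the controls. S100a6 stood at -0.49, and at -0.21 without that rat. Its highest dosed rat of 24 months, at 49.1, lay just below its lowest control, at 49.8. How many of all genes separate in this direction was not counted. The change of the toluene difference with age passed for 0 of 6 members in all 3 pairs of ages, against 0% of all genes from 4 to 12 months, 0.0116% higher and 0% lower from 4 to 24 months, and 0.0116% higher and 0.0233% lower from 12 to 24 months, and at an unadjusted p under 0.05 for 0 members, against 3.13%, 4.88% and 11.4% of all genes.

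Of the gene lists, 2 held genes that rose from 4 to 24 months in the Brown Norway controls. They were Jchain, the joining chain of antibodies, 2.69-fold (adjusted p = 0.0145), as the 1 lymphocyte marker tested, and 2 of 13 monocyte and macrophage markers, the complement chain C1qb 3.02-fold (adjusted p = 0.0236) and the scavenger receptor Cd163 2.5-fold (adjusted p = 0.0354). In the other 10 lists 0 genes passed, Anxa1, Anxa2 and the rest of the 14 S100 partners among them.

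Other genes set the outlying rats apart as well, and not in the same way. Rat 1 of the 4-month dosed group and rat 2 of the 12-month dosed group had summed signals of 5194 and 3398 over the 10 stellate cell and fibroblast markers, against a median of 1183 over the 18 arrays, and rat 1 of the 24-month controls had 1942. Dcn, a proteoglycan of connective tissue, read 1246, 953 and 763 in these 3 rats and at most 209 in the others. The collagen chain Col1a1 read 307 and 125 in the 2 dosed rats and at most 37.9 elsewhere, and Des, the desmin of contractile cells, 409 and 203 against at most 26.6. Rat 1 of the 24-month controls was instead the highest in the monocyte and macrophage markers, with a sum of 11289 against a median of 3639. Cd68 read 624 there, against at most 241 elsewhere, and Lyz2 2218 against at most 1203. Of the markers named here Dcn alone was high in all 3 rats, as were S100a4, S100a6 and S100a11, while S100a10 was high in 2 of them. The part of these markers in the S100 values was not tested.

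Rat 2 of the 4-month controls, the highest in S100a8 and S100a9, was also the highest in the 13 inflammatory signalling genes, with a sum of 8226 against a median of 2529. Rat 2 of the 24-month controls was next with 7552, and was among the 4 rats with S100a8 above 32. The chemokine Cxcl1 read 2055 and 1943 in these 2 rats and at most 400 in the others. Lcn2, a siderophore-binding protein of neutrophils and of inflamed hepatocytes, read 3030 and 1634 there, and 3627 in rat 1 of the 24-month controls, where S100a8 read 19.8. The macrophage sum of rat 2 of the 4-month controls was 2842, the lowest of the 18 arrays. The neutrophil genes Csf3r and Mmp8 read at most 15.5 and 13.6 on all 18 arrays. Fcnb, of the same list, lay under 32 on 17 of the 18 and read 52.3 in rat 1 of the 24-month controls. The part of these genes in the S100a8 and S100a9 values was not tested.

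**Figure D4:**
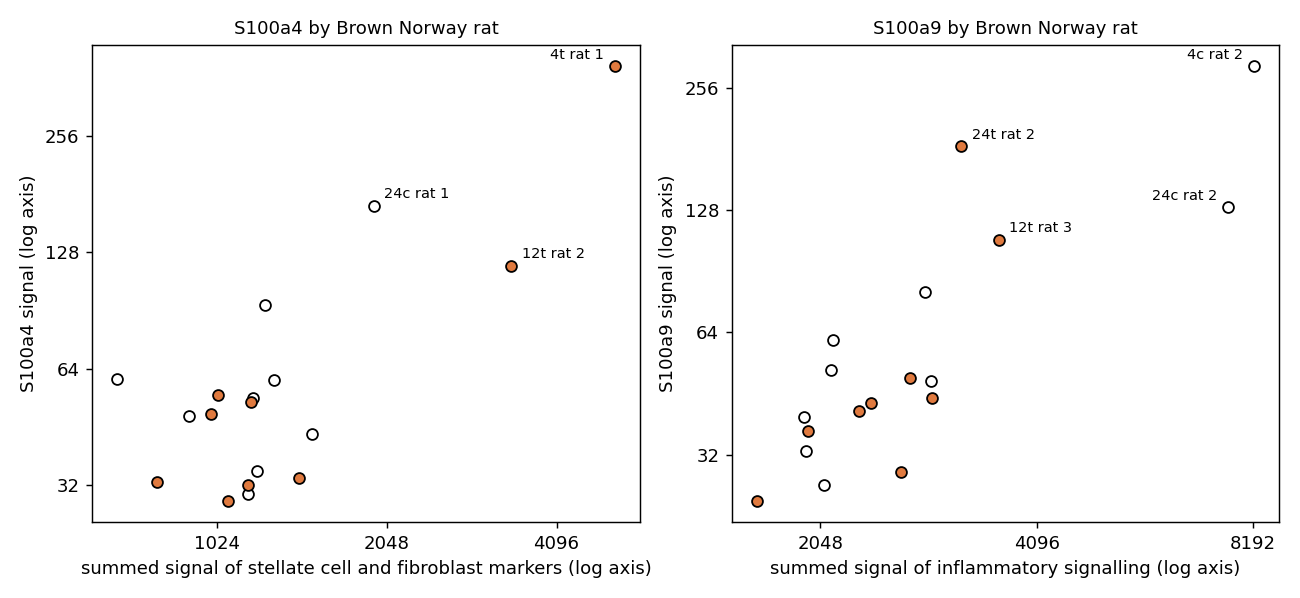
Left, S100a4 signal against the summed signal of 10 stellate cell and fibroblast markers; right, S100a9 signal against the summed signal of 13 inflammatory signalling genes; log axes, 1 point per Brown Norway rat (white control, orange toluene), with c, t and the age naming the labelled rats. The 3 rats of highest S100a4 are also the 3 with the highest sums on the left, and the 4 rats of highest S100a9 include the 3 with the highest sums on the right.

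The 6 genes were compared in pairs across rats, 15 pairs in each strain and 30 relations in all, with permutation tests of 100000 resamples and Benjamini-Hochberg adjustment over the 30. Because age separates the F344 rats, the relation was also computed on deviations of each rat from the mean of its group. S100a8 and S100a9 went together in both strains. S100a8 had been set to the floor on 8 of 16 F344 and 14 of 18 Brown Norway arrays, so fewer rats than the stated number carry its variation. In F344 rats Pearson's r was 0.90 and Spearman's rho 0.93 over 16 rats (permutation p = 1e-05 for each, the smallest the resamples can give, adjusted p = 0.0001), and r was 0.89 without the 2 rats farthest from the median of S100a9. On deviations it was 0.82 (permutation p = 0.00185, adjusted p = 0.0239). S100a8 was at the floor in all rats of 6 and 11 months, so this value rests on those of 18 and 24 months. In Brown Norway rats r was 0.71 and rho 0.73 over 18 rats (permutation p = 0.00022 and 6e-05, adjusted p = 0.0006 and 0.00036), with r = 0.56 without 2 rats. Those 2 held the highest S100a8 values, and the only S100a8 values above 32 that remained were 35.0 and 32.3. On deviations r was 0.82 (permutation p = 0.0124), which just missed after adjustment (adjusted p = 0.0503).

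In Brown Norway rats the other 4 genes formed a group of their own. Over their 6 pairs r ran from 0.73 to 0.93, and from 0.57 to 0.89 without 2 rats each. Another outlying rat remained each time. For S100a6 with S100a4 it was rat 1 of the 24-month controls, at 97.5 and 169. For the other pairs it was rat 2 of the 12-month dosed group, at 241 in S100a11, 192 in S100a6 and 118 in S100a4. Spearman's rho ran from 0.43 to 0.86, lowest for S100a11 and S100a6 (permutation p = 0.0755, adjusted p = 0.103). On deviations it ran from 0.78 to 0.95, and 5 of the 6 passed (permutation test, adjusted p = 0.0069 to 0.0552 over the 6). S100a6 and S100a4 were the closest pair, with r = 0.93 and rho = 0.86 (permutation p = 1e-05 for each, adjusted p = 0.0001) and r = 0.95 on deviations (permutation p = 0.00023, adjusted p = 0.0069). S100a8 or S100a9 against these 4 gave r from -0.24 to -0.02 over 8 pairs, and -0.15 to 0.06 on deviations (permutation test, adjusted p = 0.899 to 0.983).

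The F344 rats did not show this division once age was removed. Over the same 6 pairs r on deviations ran from -0.15 to 0.72, and 0 of 6 passed (permutation test, adjusted p = 0.0503 to 0.983), with S100a11 and S100a10 the closest. Across the 8 mixed pairs it ran from -0.22 to 0.65, highest for S100a9 with S100a10 (permutation p = 0.0184, adjusted p = 0.0552). The difference between the strains in these values was not tested. S100a8 had been floored on 8 of the 16 F344 arrays and S100a4 on 7, all of them of 6 or 11 months. The F344 pairs with either gene thus rest mainly on the rats of 18 and 24 months.

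**Figure D5:**
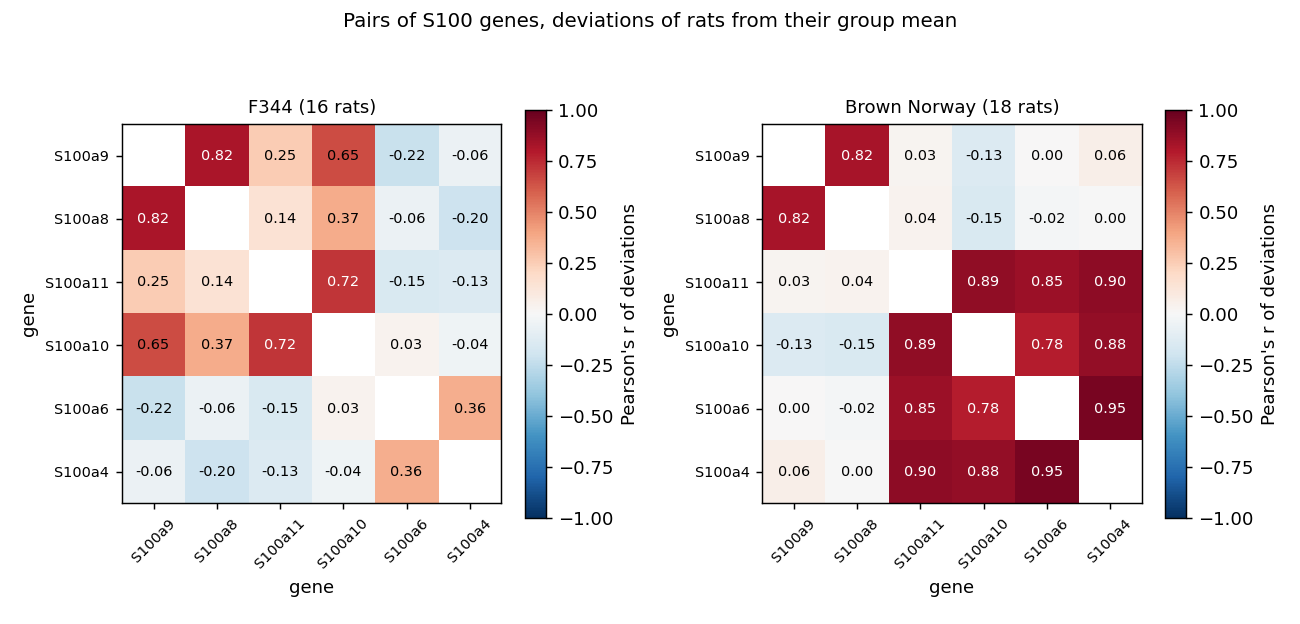
Pearson's r (colour, from -1 in blue to 1 in red) between each pair of S100 genes, on the deviation of each rat's floored log2 signal from its group mean, for 16 F344 and 18 Brown Norway rats. In Brown Norway rats S100a8 and S100a9 are one red block and the other 4 genes another, with values near 0 between them.

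The genes whose log2 signals followed each member most closely across a strain's arrays are given by Pearson's r, as a description and with no test. In F344 rats, where age moves all of them, S100a10 was followed by Ugcg at 0.97, its partner Anxa2 at 0.94 and Vim at 0.93. S100a9 was followed by Neurl3 at 0.94, Unc5cl at 0.93 and S100a10 at 0.93, and S100a8 by Rnf128, Sirpa and Acot9 at 0.90 to 0.91. S100a11 had Sh3bgrl3 at 0.94, Gpnmb at 0.94 and RT1-Da at 0.93. S100a4 had Lhx2 at 0.91, Jak3 at 0.89 and Rgs10 at 0.87, and S100a6 had Rack1, RT1-DMb and Lhx2 at 0.85 each.

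In Brown Norway rats Anxa2 again followed S100a10, at 0.93, beside Fabp4 at 0.94 and Vopp1 at 0.92. S100a6 was followed by Lgals1 and Cd9 at 0.97 and Prnp at 0.96, and S100a4 by S100a6, Lgals1 and Cd9 at 0.92 to 0.93. S100a11 had Ehbp1l1, Ezr and Serpinb1a at 0.92 each. S100a8, which lay at the floor on 14 of 18 arrays, had Nlrc5 at 0.99, and Aifm2 and Tnfrsf1b at 0.97, and S100a9 had Lrrc47, Ube2g2 and Ippk at 0.86.

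Whether old age moved the S100 genes differently in the 2 strains was tested as the F344 difference of 24 and 6 months minus that of Brown Norway controls of 24 and 4 months, over the 7964 genes measured by 1 probe set in both. In limma 0 of 6 members passed, against 0.188% of all genes higher and 0.213% lower, and 2 members passed at an unadjusted p under 0.05, against 8.15% of all genes. S100a8 differed by 1.52 on the log2 scale (SE 0.40, adjusted p = 0.117) and S100a9 by 1.73 (SE 0.76, adjusted p = 0.509). Without rat 2 of the 4-month controls, the highest in both genes, these were 0.89 (adjusted p = 0.246) and 0.73 (adjusted p = 0.861). S100a8 passed when rat 1 or rat 3 of the 4-month controls was left out (adjusted p = 0.0412 and 0.0359), the outlying rat 2 then being 1 of 2 controls of that age. For S100a11 the difference was 1.09 (95% interval -0.20 to 2.39), for S100a10 0.29 (95% interval -0.76 to 1.33), for S100a4 0.07 (95% interval -1.46 to 1.60) and for S100a6 -0.03 (95% interval -1.51 to 1.45). Without rat 1 of the 24-month controls these 4 were 1.67, 0.92, 0.62 and 0.25, and 0 of 6 members passed. The young groups also differ in age between the strains.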

How the data were processed

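Liver RNA was measured on 1 Affymetrix Rat 230 2.0 array per rat. Each deposited value is a probe set's intensity on a linear scale, and the deposited arrays of a strain have nearly the same distribution. Per the submitters' processing notes MAS5 and RMA were used, with no version, role or order, and how the values were scaled is not given in the sources used here. Per-sample columns not used numbered 0. Gene names come from the platform's annotation. Array control probe sets were left out. Of 24946 probe sets 17584 name 1 gene, 393 several and 6964 none.

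A gene was represented by its probe set of highest mean signal in the strain. Signals were floored at 32 and put on the log2 scale. Tested genes lay above 32 on at least 4 F344 arrays (9214 of 11943 genes) or 3 Brown Norway arrays (8586 of 11984), and all 6 members were. limma 3.58.1 in R 4.3.3 fitted a mean per group within each strain, and on all 34 arrays for the strain difference. A gene passed at a Benjamini-Hochberg adjusted p under 0.05 over all genes tested. The fits were tested on simulated data.

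The members and the 12 gene lists were chosen with earlier results of these data known. From each list up to 3 genes of smallest p among those that passed at 18 or 24 versus 6 months (F344) or 24 versus 4 months (Brown Norway controls) are named, with Cacybp, Myh9, Cd14 and the genes of single rats chosen after their values were seen. Alternatives were quantile or median scaling anew, floors 4 times lower or higher, no filter, genes above the median signal, other uses of probe sets, a variance trend, array weights, the compared groups alone, GAPDH as a covariate or filter, and each rat left out.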

Additional observations from a re-analysis of the deposited data

Results flagged for a closer look

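S100a14, a member of the family outside the 6, read 187.8 in rat 1 of the 4-month Brown Norway dosed group, where no control rat of the strain exceeded 11.3. S100b, another such member, read 35.7 in the same rat, where no control exceeded 25.8. Both lie above every control in a gene that was not tested in Brown Norway rats, on the array that was also highest in S100a4 and S100a6. No group of 4 F344 rats had a member value far enough from the rest to stand out, of 21 groups checked. Chance alone makes about 1 in 20 such groups stand out.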

How the results depend on the processing

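The number of S100 members that passed was 5 from 6 to 18 months, 6 from 6 to 24, 1 from 11 to 18 and 5 from 11 to 24 months in F344 rats, listed here in that order where a setting moved it by more than 1.5 times. A floor of 8 gave 3 from 11 to 24 months. A floor 4 times as high gave 1, 3 and 2 for the 6 to 18, 6 to 24 and 11 to 24 month comparisons. With no filter they were 2 from 6 to 18, 0 from 11 to 18 and 2 from 11 to 24 months. Genes above the median signal gave 3, 3, 2 and 3. With this setting and with the high floor, S100a8, S100a6 and S100a4 were not tested in F344 rats. Their highest F344 signals were 75.7, 83.1 and 120. The counts of both settings thus cover S100a9, S100a11 and S100a10 alone. The compared groups alone, and likewise leaving out the arrays of high GAPDH ratio, gave 3 from 6 to 18, 0 from 11 to 18 and 3 from 11 to 24 months. From 11 to 18 months a variance trend gave 3, array weights 4 and the GAPDH covariate 2. Leaving out each rat gave 2 to 5, 5 to 6, 0 to 3 and 2 to 5, and 0 to 1 for the strain difference. Why these counts moved was not tested, beyond the members left untested, the smaller number of arrays or the different set of genes adjusted over. The count was 0 under every setting run for the other F344 and all Brown Norway comparisons. No called member difference changed sign, and of 2110 recomputed differences 98 that were not called did. The correlation of S100a8 and S100a9 was 0.89 to 0.94 in F344 and 0.72 to 0.96 in Brown Norway rats under the other settings. That high floor gave no value for it, since S100a8 is then constant. No paired analysis was possible because the replicate numbers were given in accession order and the labels do not pair rats across groups.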
